A study of Mus musculus with 8 samples.

Results

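A set of 10 marker genes of dendritic cells was examined in RNA from mouse peripheral blood after 6 hours of restraint stress. These genes (Xcr1, Clec9a, Siglech, Flt3, Irf8, Batf3, Zbtb46, Tcf4, Bst2 and Ccr9) were taken by symbol from a count table of 21878 genes, and each symbol matched exactly 1 row. Whole blood was sequenced from 4 mice of the control group and 4 mice of the stress group. All were wild-type female C57BL/6 mice, 6 to 8 weeks old. The stress group was held for 6 hours in a ventilated tube without food or water, and the control littermates stayed in their cage, also without food or water, so that both groups were fasted. Blood was not sorted, so every value is a mean over all blood cells, and all animals were of 1 sex and 1 strain. The study singled out Xcr1 as a migration gene, with Ccr1, Ccr2 and Cxcr2, from these same samples. The rise of these genes here is therefore not independent evidence.

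Dendritic cells take up antigen, carry it to lymphoid organs and present it to T cells. Conventional dendritic cells of type 1 (cDC1) cross-present antigen to CD8 T cells and depend on the transcription factors Irf8 and Batf3. They carry Xcr1, the receptor for the chemokine Xcl1, and Clec9a, a lectin receptor for the actin exposed on dead cells. Plasmacytoid dendritic cells (pDC) release type I interferon on sensing viral nucleic acid, and their identity rests on Tcf4, an E protein (not to be confused with the Wnt effector Tcf7l2). Their surface carries the lectin Siglech and the membrane protein Bst2, and part of them carries Ccr9, the receptor for the gut and thymus chemokine Ccl25. Flt3, the receptor for Flt3 ligand, drives the development of both kinds, and Zbtb46 marks conventional dendritic cells and their committed precursors. Dendritic cells are rare in blood. Irf8 is also expressed by B cells and monocytes, Tcf4 by B cells, Ccr9 by T cells and Bst2 by many cells under interferon, so that in whole blood these 4 genes do not measure dendritic cells alone.

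Control libraries held 31471145 to 39014775 counts and stress libraries 25978683 to 29655725, and haemoglobin genes took 51.9% to 63.8% and 61.2% to 75.5% of them. Values are given as CPM (read counts scaled to a common library size) after TMM scaling, which takes the typical gene as unchanged. Control libraries had factors of 1.01 to 1.77 and stress libraries of 0.507 to 1.10. Over all 11718 tested genes the median log2 fold change was -0.03 on this scale and -0.82 with libraries scaled by total counts alone, so each direction below is relative to the typical gene. In bulk blood, fewer cells of a type and less RNA per cell cannot be told apart. Beside these genes, 9 of 10 neutrophil markers passed as higher (edgeR, adjusted p below 0.05), with summed levels of 195 to 384 CPM in the control group and 608 to 889 CPM in the stress group, and 6 of 10 B cell markers passed as lower, with sums of 1061 to 1308 and 722 to 950 CPM. Over all tested genes, 10.4% passed as higher and 3.69% as lower. With total counts alone 5 of 10 neutrophil markers passed as higher, beside 0.444% of all tested genes. Lower on that scale were 10 of 10 B cell, 7 of 10 T cell and 7 of 8 NK cell markers. Of all tested genes, 49.6% were lower there.

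The promoter stretches of Xcr1 (chr9:123862030-123862279), the gene with the clearest difference between groups, and of Bst2 (chr8:71537473-71537722), an interferon-inducible gene, are shown to introduce the regulatory letters that the factors among the 10 genes are known to bind. Each is the stretch of 250 bases before the RefSeq transcription start (GRCm38.p6, printed 5′ to 3′ on the gene's own strand, here the minus strand of the chromosome). Capitals mark matches on either strand to the interferon-stimulated response element bound by Irf proteins (searched as 2 copies of GAAA with any 2 bases between them), to TGANTCA, the AP-1 site bound by Batf3 with Jun proteins, or to CAGGTG, an E-box bound by E proteins such as Tcf4.
Xcr1: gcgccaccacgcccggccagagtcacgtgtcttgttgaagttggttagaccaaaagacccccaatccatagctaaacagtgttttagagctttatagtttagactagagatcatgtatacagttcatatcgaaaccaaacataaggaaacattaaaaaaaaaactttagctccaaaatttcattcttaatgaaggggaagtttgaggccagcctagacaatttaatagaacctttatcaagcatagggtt
Bst2: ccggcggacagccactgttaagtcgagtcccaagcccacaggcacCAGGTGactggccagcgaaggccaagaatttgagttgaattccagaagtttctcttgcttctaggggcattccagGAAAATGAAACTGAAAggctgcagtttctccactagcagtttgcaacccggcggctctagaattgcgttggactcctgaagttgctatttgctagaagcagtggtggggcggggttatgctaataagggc
The Xcr1 stretch held no match to any of these motifs. The Bst2 stretch held 2 overlapping matches to the response element, beginning 130 and 124 bases before the start, and 1 E-box beginning 205 bases before it. Over the RefSeq table's 32851 promoter stretches of the same length, 2.98% held the response element, 6.75% the AP-1 site and 17.2% the E-box. Among the other genes examined, the Siglech, Ccr9 and Zbtb46 stretches and 1 of the 2 Irf8 stretches held an E-box. No stretch of Tcf4 was searched. Zbtb46 held an AP-1 site 61 bases before the RefSeq start used. The starts used for Zbtb46, Ccr9, Batf3 and Siglech lay inside these genes as annotated in GENCODE M21. So did the Irf8 start whose stretch held the E-box. The Siglech, Ccr9 and Batf3 stretches held annotated exon bases of their own gene, and the Clec9a stretch held those of the neighbouring Clec1b. A match is a description of letters, not a site that these data show to be used.

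In the stress group, transcripts of Xcr1 and Flt3 rose among the 10 genes and none passed as lower. Of the 9 genes with enough counts to be tested, 2 passed as higher in edgeR's quasi-likelihood test (p adjusted over all tested genes by Benjamini-Hochberg, limit 0.05), where 10.4% of all tested genes did. Lower at that limit were 0 of 9 against 3.69% of all tested genes, with 1 of 9, Irf8, lower at an unadjusted p below 0.05, 1 of 9 lower with DESeq2 (4.76% of all genes tested that way) and 0 with limma-voom. Past the stricter limits used in the study (more than 1 on the log2 scale in either direction, with adjusted p under 0.01) was 1 gene, Xcr1, against 1.69% of all tested genes that passed as up and 0.0171% that passed as down. With DESeq2, the tool the study used, Flt3 passed these limits as well (1.30 on the log2 scale, adjusted p = 0.00709), making 2 genes, against 2.45% of all genes tested that way. The median log2 fold change was 0.30 over the 9 genes and -0.03 over all tested genes, and 5 of the 9 lay above 0. With total counts alone, 0 of the 9 passed as higher and 4 (Siglech, Irf8, Tcf4 and Ccr9) as lower, beside 0.444% and 49.6% of all tested genes, and 0 passed the stricter limits up or down, beside 0.119% and 6.21%, with a median of -0.56 against -0.82 for all tested genes.

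**Figure D1:**
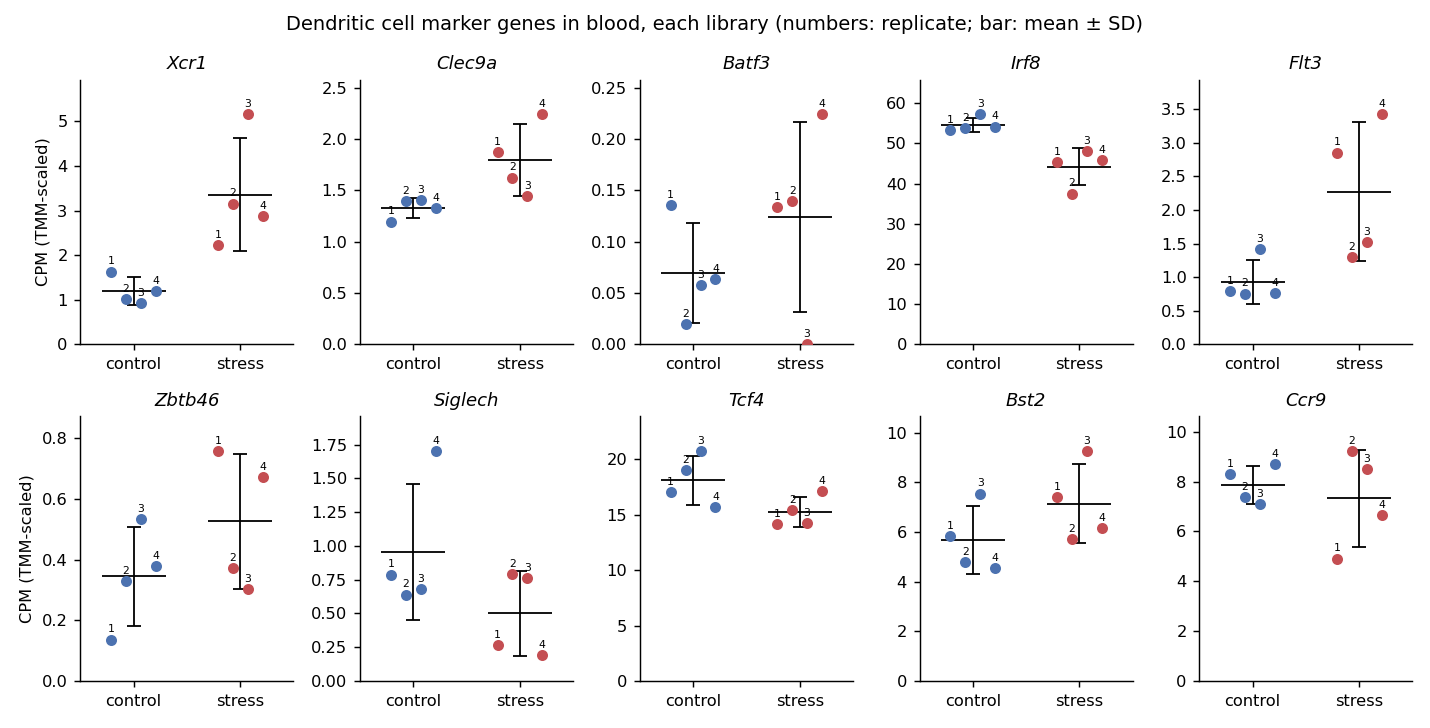
Level of each of the 10 genes in each library, in TMM-scaled CPM on axes that start at 0, with control libraries in blue and stress libraries in red, replicate numbers beside the points and black bars for the mean ± SD of 4. All 4 stress points of Xcr1 lie above the control points, while those of Siglech, Tcf4, Bst2 and Ccr9 overlap them.

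Among the cDC1 genes, Xcr1 (chromosome 9, 123852315 to 123862029 in the GENCODE M21 annotation of GRCm38) had 60, 52, 64 and 38 counts in control replicates 1 to 4 and 50, 68, 68 and 90 in stress replicates 1 to 4. In the same order its level was 1.63, 1.01, 0.925 and 1.20 CPM in the control group and 2.23, 3.15, 5.16 and 2.88 CPM in the stress group. Every stress library lay above every control library, and stress replicate 3 was the highest. The group mean rose from 1.19 ± 0.315 to 3.36 ± 1.26 CPM (SD over 4 libraries each). This was 1.48 on the log2 scale (standard error 0.29), or 2.80-fold with a 95% interval of 1.82 to 4.28 (adjusted p = 0.00485, edgeR). An order of this kind, with every stress library above, was found in 11.1% of all tested genes. Leaving out 1 library in turn kept the adjusted p below 0.05 in 8 of 8 fits (0.00613 to 0.0246), but it exceeded 0.01 without control replicate 2 (0.0246), control replicate 3 (0.0197), control replicate 4 (0.0103) or stress replicate 2 (0.0143). Without stress replicate 3, the library with the fewest counts, the log2 fold change was 1.24.

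The size of the Xcr1 difference depended on the scale. In CPM of total counts alone its level was 1.91, 1.48, 1.64 and 1.21 in the control libraries and 1.79, 2.29, 2.62 and 3.17 in the stress libraries. On this scale stress replicate 1 fell within the control range, and the log2 fold change of 0.66 did not pass (adjusted p = 0.153, edgeR). The 3 tested genes whose pattern over the 8 libraries was nearest to that of Xcr1 were Gm30411, Gng11 and Triqk, with root mean square differences of 0.202, 0.218 and 0.233 in centred log2 CPM. Gng11, a G protein gamma subunit abundant in platelets, rose from 221 ± 41.3 to 473 ± 140 CPM (SD over 4 libraries each). Of 8 platelet markers, listed after this was seen and with Gng11 among them, 8 passed as higher (7 of 7 without Gng11), with summed levels of 1400 to 2086 CPM in the control group and 3038 to 4233 CPM in the stress group. Of all tested genes, 10.4% passed as higher. With total counts alone 0 of these 8 passed, beside 0.444% of all tested genes as higher. The log2 ratio of Xcr1 to platelet marker counts within each library was higher by 0.44 in the stress group (p = 0.0571), and that of Xcr1 to haemoglobin counts by 0.42 (p = 0.143, two-sided exact permutation tests over the 70 assignments of the samples, 0.171 for each after adjustment over the 3 ratios added), and the groups overlapped in both. Without Gng11 the difference in the platelet ratio was 0.45 (unadjusted exact permutation p = 0.0571). The part of platelet and red cell RNA in the Xcr1 result was not tested beyond these ratios.

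Clec9a, which marks the same cDC1 cells, had 42 to 97 counts in the control libraries and 19 to 70 in the stress libraries. Its level was 1.20, 1.39, 1.40 and 1.32 CPM in control replicates 1 to 4 and 1.87, 1.62, 1.44 and 2.24 CPM in stress replicates 1 to 4. Every stress library lay above every control library, with stress replicate 3 close to the highest controls, and the log2 fold change of 0.45 (standard error 0.24) did not pass (adjusted p = 0.214, edgeR). The 95% interval ran from 0.960-fold to 1.94-fold, and with total counts alone the value turned to -0.31. Clec9a and the neighbouring Clec1b, a platelet receptor gene on the same strand of chromosome 6, share up to 184 exon bases in the annotation. Clec1b had 3132 to 5390 counts per library and rose from 94.0 ± 18.0 to 186 ± 39.6 CPM (SD over 4 libraries each), or by 0.99 on the log2 scale (adjusted p = 0.00326, edgeR). Within libraries the log2 ratio of Clec9a to Clec1b was lower by 0.56 after stress, with overlap (exact two-sided permutation test, p = 0.171). How many Clec9a reads came from the shared bases was not tested.

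The ratio of Xcr1 to Clec9a counts within a library needs no scaling. On the log2 scale it was 0.44, -0.47, -0.60 and -0.14 in control replicates 1 to 4 and 0.25, 0.95, 1.81 and 0.36 in stress replicates 1 to 4. The mean ratio was 2.05-fold higher in the stress group, but control replicate 1 lay above stress replicates 1 and 4, and the difference was not past the threshold (exact two-sided permutation test, p = 0.0857, adjusted over the 6 ratios fixed for testing 0.286, smallest possible p 0.0286).

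The remaining cDC1 genes are the transcription factors. Batf3 had 5, 1, 4 and 2 counts in the control libraries and 3, 3, 0 and 7 in the stress libraries, too few for the model. Its mean was 0.0690 CPM in the control group and 0.124 CPM after stress (exact two-sided permutation test, p = 0.343), and the 0 in stress replicate 3 allows a level of up to 0.228 CPM (3 counts), so that this depth could not show a change of Batf3. Irf8 was the most counted of the 10 genes, with 53.4, 53.8, 57.3 and 54.2 CPM in the control libraries and 45.3, 37.5, 48.0 and 45.9 CPM in the stress libraries. All 4 stress libraries lay below the control libraries, an order seen in 9.88% of tested genes. The log2 fold change of -0.31 (standard error 0.10) had an adjusted p of 0.0653 with edgeR, 0.0272 with DESeq2 and 0.0579 with limma-voom. Of 8 edgeR fits without 1 library, only 1 passed, that without stress replicate 3 (adjusted p = 0.0334). The adjusted p reached 0.199 without stress replicate 2. Relative to the summed B cell markers of the same library, Irf8 was 1.10-fold higher after stress, with overlap (exact two-sided permutation test, p = 0.143, adjusted 0.286).

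Flt3 and Zbtb46 are shared by dendritic cell lineages, and both differed widely among the stress libraries. Flt3 was at 0.788, 0.755, 1.42 and 0.757 CPM in control replicates 1 to 4 and at 2.85, 1.30, 1.52 and 3.43 CPM in stress replicates 1 to 4. Stress replicates 1 and 4 were high, stress replicates 2 and 3 lay near control replicate 3, and the groups overlapped. Flt3 rose by a log2 fold change of 1.29 (standard error 0.35), 2.45-fold with a 95% interval of 1.46 to 4.12 (adjusted p = 0.0272, edgeR). This call was lost without control replicate 1 (adjusted p = 0.0698), control replicate 2 (0.0907), stress replicate 1 (0.0676) or stress replicate 4 (0.0757), and with total counts alone (log2 fold change 0.54, adjusted p = 0.266). Zbtb46 had 4 to 37 counts per library, with 0.136, 0.329, 0.535 and 0.378 CPM in the control libraries and 0.758, 0.371, 0.304 and 0.672 CPM in the stress libraries. Zbtb46 did not pass, at 0.62 on the log2 scale (standard error 0.49, adjusted p = 0.412, edgeR), and with total counts alone it was -0.17.

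Of the pDC genes, none passed in either direction. Siglech had 29, 33, 47 and 54 counts in the control libraries and 6, 17, 10 and 6 in the stress libraries, equal to 0.788, 0.639, 0.679 and 1.70 CPM and to 0.268, 0.789, 0.759 and 0.192 CPM. Stress replicates 1 and 4 were low, while stress replicates 2 and 3 were at the level of control replicates 1 to 3. The log2 fold change was -0.98 (standard error 0.52, adjusted p = 0.215, edgeR), with a 95% interval of 0.235-fold to 1.09-fold, and -0.53 without control replicate 4. With total counts alone it was -1.77 and passed (adjusted p = 0.0123), so the call for Siglech rests on the scale.

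Tcf4 was at 15.7 to 20.8 CPM in the control group and 14.1 to 17.1 CPM in the stress group (log2 fold change -0.25, standard error 0.12, adjusted p = 0.165, edgeR). Against the summed B cell markers Tcf4 was 1.16-fold higher after stress (exact two-sided permutation test, p = 0.114), and without stress replicate 1 it gave an unadjusted p of 0.0286, the smallest that this permutation test over 35 assignments allows. Ccr9 was at 7.10 to 8.71 CPM and 4.91 to 9.23 CPM (log2 fold change -0.11, standard error 0.18, adjusted p = 0.711, edgeR), and its ratio to the summed T cell markers was 0.935-fold that of the control group (exact two-sided permutation test, p = 0.6). Its annotated exons overlap those of Gm17200 on the same strand and of AC165425.1 and Slc6a20a on the opposite strand, by up to 1876 bases. Slc6a20a had 0 to 4 counts per library, and the others were not analysed here. Bst2 was at 4.54 to 7.54 CPM and 5.71 to 9.26 CPM (log2 fold change 0.30, standard error 0.19, adjusted p = 0.307, edgeR), and the value turned to -0.56 with total counts alone. Of 11 interferon-stimulated genes in the table, Isg15 and Oasl2 passed as higher (adjusted p = 0.0498 and 0.0442, edgeR), where 10.4% of all tested genes did. With DESeq2, 3 of the 11 passed as higher, beside 12.2% of all genes tested that way, and Isg15 did not (adjusted p = 0.0788). With total counts alone 0 of the 11 passed as higher, beside 0.444% of all tested genes. The median log2 fold change of the 11 was 0.57, and -0.31 with total counts alone. The ratio of Bst2 to the sum of the 11 was 0.696-fold that of the control group (exact two-sided permutation test, p = 0.314). Rsad2 held the largest part of that sum, with means of 529 CPM in the control group and 1016 CPM in the stress group. Rsad2 did not itself pass (adjusted p = 0.0832, edgeR).

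**Figure D2:**
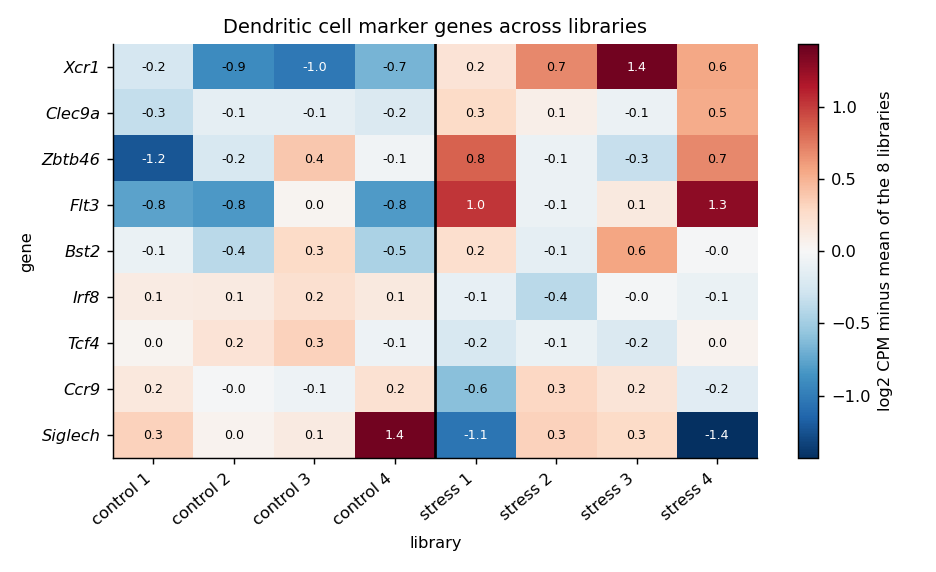
Log2 CPM of the 9 tested genes in each library, centred on the mean of the 8 libraries, with red for higher and blue for lower values and a black line between the groups. Flt3 and Zbtb46 are high and Siglech is low in stress replicates 1 and 4, while Xcr1 is highest in stress replicate 3.

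The libraries of the stress group were thus not alike. Stress replicates 1 and 4 held the highest Flt3, Zbtb46 and Clec9a and the lowest Siglech and Ccr9 of that group, and stress replicate 3 held the highest Xcr1 and Bst2. This split was seen in the values and was not tested. Summed monocyte markers were at 1129, 689, 1049 and 1012 CPM in stress replicates 1 to 4 and at 366 to 498 CPM in the control group. Lyz2 alone held 779, 484, 785 and 669 CPM of these stress sums. Each other marker of that list was highest, within the stress group, in stress replicates 1 and 4. Of the 10 monocyte markers 4 passed as higher (1 with total counts alone), beside 10.4% of all tested genes (0.444%). The study's flow cytometry counted fewer monocytes in blood after stress. The part of monocytes in the Flt3 pattern was not tested. By the root mean square difference of centred log2 CPM over the 8 libraries, the member nearest to Xcr1 was Bst2 at 0.680 and the farthest was Siglech at 1.31. Flt3 lay nearest to Zbtb46 at 0.482, and Irf8 nearest to Tcf4 at 0.166, the smallest distance among the 9 genes.

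**Figure D3:**
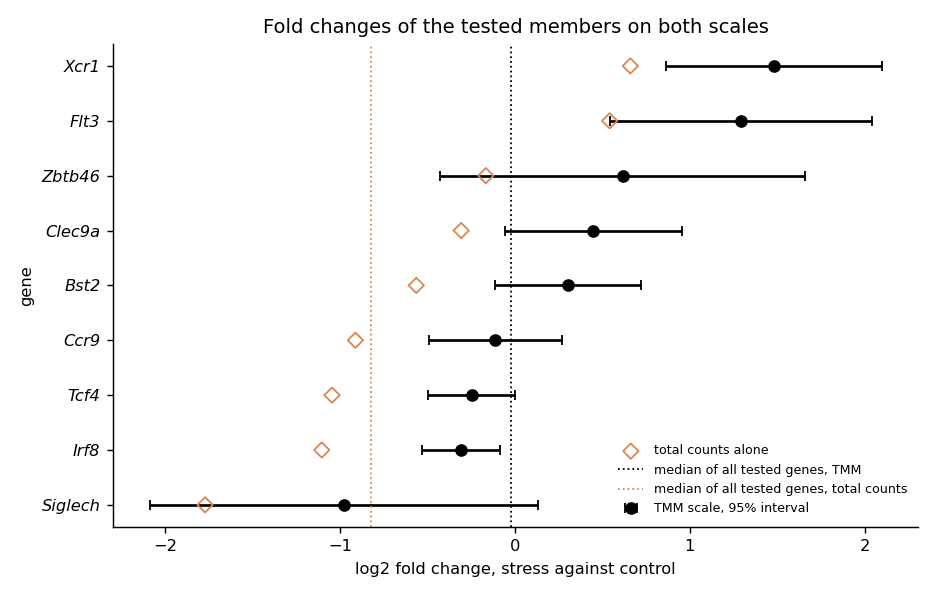
Log2 fold change of the 9 tested genes in the stress group against the control group on the TMM scale (black, with 95% intervals) and with total counts alone (orange diamonds), with dotted lines at the median of all tested genes on each scale. Xcr1 and Flt3 lie above 0 on both scales, and Zbtb46, Clec9a and Bst2 change sign.

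**Figure D4:**
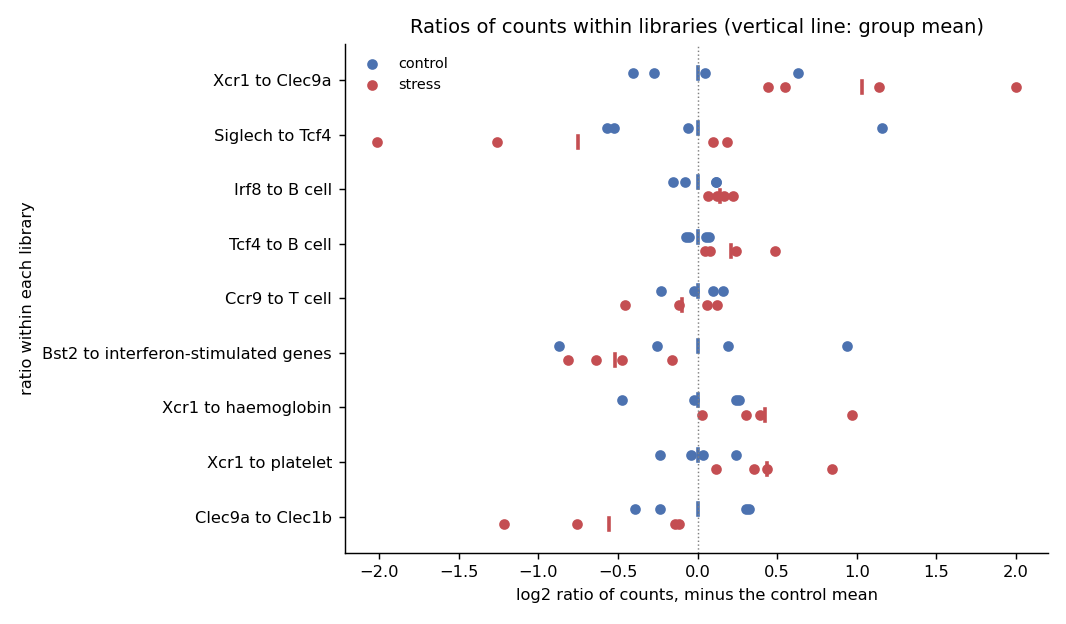
Log2 ratios of counts within each library, shifted so that the control mean is 0, for 6 ratios fixed for testing and 3 added afterwards, with 1 point per library and short lines at group means. The groups overlap in all 9 ratios.

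Levels of the 10 genes were compared with each other per kilobase of annotated exon. In the control group the order was Irf8 (7.75 ± 0.252 CPM per kilobase, SD, n = 4), Bst2 (6.29 ± 1.51), Ccr9 (0.768 ± 0.0738), Tcf4 (0.661 ± 0.0815), Clec9a (0.404 ± 0.0289), Siglech (0.281 ± 0.149), Xcr1 (0.267 ± 0.0708), Flt3 (0.150 ± 0.0527), Batf3 (0.0432 ± 0.0305) and Zbtb46 (0.0405 ± 0.0193). Of the neighbours in this order, Bst2 and Ccr9, Tcf4 and Clec9a, and Flt3 and Batf3 had ranges that did not overlap, and the other 6 pairs overlapped. In the stress group Xcr1 moved from place 7 to place 3 at 0.754 ± 0.284 CPM per kilobase, though its range overlapped that of Ccr9 below it. With the longest transcript as the length in place of all exons, Tcf4 stood above Ccr9 and Siglech above Clec9a in the control group, and Xcr1 took place 5 in the stress group.

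Further genes of the same cells were read from lists of markers. Of 12 other cDC1 genes 11 were tested, and 2 passed as higher and 1 as lower (10.4% and 3.69% of all tested genes). Of the 14 tested cDC1 genes, Xcr1, Clec9a and Irf8 included, 0 passed with total counts alone as higher and 5 as lower, where 0.444% and 49.6% of all tested genes did. Nfil3, a factor that cDC1 need for their development, rose from 1.37 ± 0.229 to 3.99 ± 1.49 CPM (SD over 4 libraries each, log2 fold change 1.56, adjusted p = 0.0025, edgeR). Gcsam, a signalling adaptor that cDC1 share with germinal centre B cells, rose from 0.903 ± 0.265 to 2.80 ± 0.807 CPM (log2 fold change 1.63, adjusted p = 0.00299, edgeR). Neither passed with total counts alone (log2 fold changes 0.82 and 0.81). Which blood cells gave the Nfil3 and Gcsam transcripts was not tested. Ly75, an endocytic receptor also found on B cells, fell from 13.2 ± 1.06 to 9.85 ± 1.13 CPM (log2 fold change -0.42, adjusted p = 0.0335, edgeR), a call kept in 2 of 8 fits without 1 library, those without control replicate 3 or stress replicate 1. Cadm1, an adhesion molecule of cDC1, had 2 to 8 counts in each control library and 0 in all 4 stress libraries, where 0 allows up to 0.0961 to 0.228 CPM, beside control levels of 0.0543 to 0.116 CPM.

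Of 16 other pDC genes 14 were tested, and 0 passed as higher (edgeR, 1 at an unadjusted p below 0.05 over the list with its 4 members, 1 with DESeq2 and 0 with limma-voom) and 2 as lower, beside 10.4% and 3.69% of all tested genes. Of the 18 tested pDC genes on the whole list, 13 passed as lower with total counts alone, beside 49.6% of all tested genes. Bcl11a, a zinc finger factor of pDC and B cells, fell from 35.5 ± 1.73 to 23.5 ± 6.81 CPM (log2 fold change -0.58, adjusted p = 0.0344, edgeR), a call kept in 3 of 8 fits without 1 library, those without control replicate 4, stress replicate 1 or stress replicate 4. Pacsin1 fell from 9.96 ± 0.635 to 7.11 ± 0.781 CPM (log2 fold change -0.49, adjusted p = 0.0201, edgeR), a call lost without control replicate 2, control replicate 3 or stress replicate 2. The pDC genes Cox6a2 and Klk1 had at most 12 counts in any library and were not tested.

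Of 15 other genes of conventional dendritic cells, which include genes of the type 2 cells (cDC2), 13 were tested, and 3 passed as higher and 2 as lower (10.4% and 3.69% of all tested genes). Of the 15 tested genes on the whole list, 0 passed with total counts alone as higher and 7 as lower, where 0.444% and 49.6% of all tested genes did. Cd209a, a lectin of cDC2 and of monocyte-derived cells, rose from 0.712 ± 0.163 to 1.94 ± 0.749 CPM (log2 fold change 1.41, adjusted p = 0.0174, edgeR), a call lost without control replicate 2. Sirpa, an inhibitory receptor of cDC2 and most myeloid cells, rose by a log2 fold change of 0.77 (adjusted p = 0.0184, edgeR), which was lost without control replicate 2 or control replicate 3. Esam, an adhesion molecule that platelets also carry, rose by 1.10 on the log2 scale (adjusted p = 0.00109, edgeR). None of these 3 passed with total counts alone. Ciita, the master regulator of MHC class II genes and active in B cells, fell from 75.0 ± 8.06 to 44.1 ± 10.1 CPM (log2 fold change -0.76, adjusted p = 0.00636, edgeR). Dpp4, a peptidase of T cells and cDC1, fell by 0.44 on the log2 scale (adjusted p = 0.0126, edgeR), a call lost without control replicate 2 or control replicate 3.

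The binding partners of the 10 genes were scarce or varied. Xcl1, the ligand of Xcr1, had 6 to 39 counts in the control libraries and 4 to 6 in the stress libraries, and was not tested. Flt3l, the ligand of Flt3, was at 13.3 to 14.4 CPM and 10.8 to 14.2 CPM (log2 fold change -0.15, adjusted p = 0.383, edgeR), and Ccl25, the ligand of Ccr9, had at most 26 counts in any library (log2 fold change -0.10, adjusted p = 0.921). Tyrobp, the adaptor through which Siglech signals and which most myeloid cells express, rose from 20.5 ± 4.53 to 38.9 ± 4.22 CPM (SD over 4 libraries each, log2 fold change 0.93, adjusted p = 0.00199, edgeR). Syk, the kinase downstream of Clec9a, had a log2 fold change of 0.02 (adjusted p = 0.923). Among the partners of Batf3 and Irf8, Junb rose by 0.72, Jund by 0.77 and Spi1 by 0.78 on the log2 scale (adjusted p = 0.00206, 0.0351 and 0.0025, edgeR), while Jun (0.19) and Irf4 (-0.31) did not pass. Of the 12 partners tested, 4 passed as higher and 0 as lower, beside 10.4% and 3.69% of all tested genes. With total counts alone none of these passed as higher, Junb and Jund turned to -0.03 and -0.04, and 6 of the 12 partners tested (Flt3l, Syk, Id2, Irf4, Tcf3 and Tcf12) passed as lower, where 49.6% of all tested genes did. The Jund call was kept in 2 of 8 fits without 1 library, those without control replicate 4 or stress replicate 4. The E proteins Tcf3 and Tcf12 (-0.31 and -0.26) and Id2, the inhibitor of E proteins (0.07), did not pass.

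Xcr1 and Ccr9 lie in the chemokine receptor cluster of chromosome 9, of which 8 genes were read here and 7 tested. Beside Xcr1, Ccr1 and Ccr2 passed as higher and none as lower, where 10.4% and 3.69% of all tested genes did (edgeR). As lower there were also 0 at an unadjusted p below 0.05, 0 with DESeq2 and 0 with limma-voom. The study named Ccr1 and Ccr2 with Xcr1 from these same samples. Ccr1, a receptor of neutrophils and monocytes, rose from 8.75 ± 3.21 to 26.4 ± 6.16 CPM (SD over 4 libraries each, log2 fold change 1.61, adjusted p = 0.00244, edgeR). Ccr2, the receptor that calls monocytes from marrow, was at 10.7 to 16.9 CPM in the control group and at 51.1, 14.6, 36.1 and 60.5 CPM in stress replicates 1 to 4 (log2 fold change 1.70, adjusted p = 0.00745, edgeR), a call lost without stress replicate 3 (adjusted p = 0.0646) or with no filter on low counts (0.0672). Ccr1 and Ccr2 also passed with total counts alone (0.94 and 0.96), unlike Xcr1. Of the others read here, Cxcr6 (0.04), Ccr3 (0.25) and Ccrl2 (1.03) did not pass, and Ccr1l1 had at most 4 counts and was not tested.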

How the data were processed

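Per the labels, reads were aligned with HISAT2 to mm10 and counted with featureCounts, with versions, annotation and strand setting not given in the sources used here. The table deposited by the authors holds unnormalized read counts, with gene symbols as rows and 1 column per mouse. The 11718 genes reaching 10 counts in 4 or more libraries were tested in R 4.3.3 with edgeR 4.0.16 (TMM, robust quasi-likelihood test, Benjamini-Hochberg adjustment). CPM used TMM-scaled library sizes, and 1 count was worth 0.0145 to 0.0759 CPM. The standard error is the log2 fold change divided by the square root of the F statistic. "Rose" and "fell" mean an adjusted p below 0.05. Intervals come from the same fit as the p-values, while floors cover counting error only. Ratios within libraries used a pseudocount of 0.5. The test was checked on simulated data. The genes and lists were chosen with earlier results of these data known, and the platelet list and 3 ratios after seeing the values. All 10 genes were described, and of the dendritic cell lists those past the test. Of the other genes on these lists with too few counts to test, Cadm1, Cox6a2 and Klk1 were described as well, and Mgl2 and Clec4a4 were not. Partners and cluster receptors were named in full, apart from 1 listed gene that is not reported here. Alternatives used DESeq2 1.42.0, limma-voom 3.58.1, other scalings and filters, a block for replicate number and fits without each library in turn. Same-numbered samples of the groups did not deviate together (correlations 0.06, 0.0004, -0.04 and -0.16), so numbers were not taken as pairs. Coordinates and lengths come from GENCODE M21 (GRCm38, the assembly of mm10), promoters from RefSeq. The edgeR p-values weigh the group difference against variation among libraries, with information shared across genes. Permutation p-values rank the observed difference among the relabelled samples. With 1 library per mouse, variation between mice and between library preparations cannot be told apart.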

Additional observations from a re-analysis of the deposited data

Results flagged for a closer look

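In the control group, Siglech stood at 1.70 CPM in replicate 4 against 0.639 to 0.788 CPM in the other 3 libraries, and Flt3 at 1.42 CPM in replicate 3 against 0.755 to 0.788 CPM. In each case 1 library lay far from the others by Dixon's criterion for 4 values (critical value 0.829). Chance alone flags about 1 in 20 groups, and 2 of the 38 groups checked were flagged.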

How the results depend on the processing

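Scaling by total counts alone moved the counts most: 0 genes were higher, 4 lower and 0 past the limits of the study, and the log2 fold changes of Clec9a (-0.31), Zbtb46 (-0.17), Bst2 (-0.56), Ccr3 (-0.53), Cxcr6 (-0.76), Id2 (-0.79), Jun (-0.56), Junb (-0.0318), Jund (-0.0428) and Syk (-0.74) changed sign. DESeq2 gave 1 lower gene and 2 up past the limits of the study. With an adjusted p below 0.01 alone, 1 gene was higher. With a replicate block 1 was higher and 0 were past those limits (Xcr1 adjusted p = 0.0156, edgeR, Flt3 0.0561 and Ccr2 0.0502), and the samples share only a number, since 1 of 4 control libraries correlated best with its own number. Leaving out 1 library gave 1 to 2 higher, 0 to 1 lower and 0 to 1 up. Signs also changed for Ccr9 (0.0686, range over such fits -0.2223 to 0.0686) and its ratio to T cell markers (0.023) without stress replicate 1, Ccl25 with limma-voom (0.10) or without stress replicate 2 (0.0829) or 4 (0.03), range -0.3988 to 0.0829, Cxcr6 (-0.0227, range to 0.1515) and Syk (-0.0426, range to 0.1074) without control replicate 1, Id2 with limma-voom (-0.0356) or without stress replicate 3 (-0.18, range to 0.2189), and Syk without stress replicate 4 (-0.01), all of values that did not pass. Without stress replicate 1 the ratio of Tcf4 to B cell markers (0.27) reached an unadjusted exact permutation p of 0.0286, and over the 8 such fits ranged from 0.12 to 0.27. The cause was not tested. Depth limits Batf3, Zbtb46 and Siglech most.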
